A study of Mus musculus with 10 samples.

Results

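The comparison described here sets 3 hippocampus libraries from mice that received coiled-coil neurofilament light chain (CC-NfL) against 4 libraries from mice that received vehicle, 7 of the 10 libraries of the series. The libraries were chosen by their treatment label, and together they hold 50215 of the 68914 cells to which the authors gave a cell class, 24490 after CC-NfL and 25725 after vehicle. All 7 libraries came from wild-type (WT) C57BL/6 male mice, 11 weeks old, injected into both hippocampi, whose tissue was dissociated with actinomycin D, a blocker of transcription, and sorted for live cells. The comparison asks how cells of the living brain respond to NfL supplied from outside. The CC-NfL solution held 1 mg/ml of protein, and the tissue was taken 3 days later. Both groups had libraries in each of the batches that the labels call b1 and b2: vehicle 1 and 2 with CC-NfL 1 and 2 in b1, and vehicle 3 and 4 with CC-NfL 3 in b2. The remaining 3 libraries, from mice given full-length NfL (FL-NfL), entered the model only through the estimate of the spread and of the batch, except where they are named.

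Neurofilament light chain is a subunit of the intermediate filaments that fill and support axons, and its coiled-coil rod is the part through which subunits pair into filaments. It is released from damaged neurons, and its level in body fluids is read as a marker of axonal damage. Microglia, the resident macrophages of brain tissue, patrol in a homeostatic state and leave it for activated or dividing states after injury or on contact with foreign material. Macrophages of the meninges, the perivascular spaces and the choroid plexus, and cells that enter from blood, form a separate population, in which MHC class II molecules mark cells equipped to present antigen to helper T cells. No mice were injected with a protein other than NfL, so what is particular to CC-NfL cannot be told apart from the response to injected protein in general.

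The deposited table gives each cell a class, a cluster and, for microglia and macrophages, a state. It holds no gene values, so the names are the authors' and could not be checked against marker genes. A share is the percentage of a library's cells, and the library, not the cell, was the replicate. Shares are of sorted live cells, so more cells of 1 class and fewer of the others cannot be told apart. Each of the 7 libraries held 3290 to 14141 annotated cells, with 939 to 4137 microglia and 52 to 819 macrophages that carry a state. Barcodes without annotation made up 42.1% to 53.0% of the b1 libraries and 17.8% to 20.7% of the b2 libraries of both groups. In FL-NfL 1, which entered the model, they made up 71.3%. Of 49947 distinct annotated barcodes, 267 occurred in more than 1 of the 7 libraries. Effects are log2 odds ratios of CC-NfL over vehicle with their standard error (SE), from limma with group and batch as terms, and an adjusted p under 0.05 (Benjamini-Hochberg over the items of a family) was taken as a change.

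Among the 16 cell classes, the largest positive estimates after CC-NfL were those of the immune classes and the largest negative estimate was that of brain microvascular endothelium. None of the 16 passed the test after adjustment (0% of classes), while an unadjusted p under 0.05 was reached by 3 (18.8%) with limma and by 5 with a quasi-binomial model. The groups did not overlap in 2 classes (12.5%), macrophages with higher values (6.25%) and brain microvascular endothelium with lower values (6.25%) after CC-NfL. Estimates were above 0 in 7 classes (43.8%) and below 0 in 9, with a median of -0.11 over all 16.

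Macrophages made up 1.60%, 1.58%, 1.54% and 1.05% of cells in vehicle libraries 1 to 4 and 1.94%, 4.38% and 5.81% in CC-NfL libraries 1 to 3. All 3 CC-NfL libraries lay above the vehicle range, but CC-NfL 1 was only 0.342 percentage points above its nearest vehicle library. The log2 odds ratio was 1.43 (SE 0.46, 95% interval 0.36 to 2.49, adjusted p = 0.174). Without CC-NfL replicate 1 it was 1.88 with an adjusted p of 0.0137, and without CC-NfL replicate 3 it was 0.95 with an adjusted p of 0.626. Counted against microglia instead of all cells, there were 6.60, 4.22, 4.53 and 3.09 macrophages per 100 microglia after vehicle and 5.90, 11.9 and 19.9 after CC-NfL. On this measure the groups overlapped, since CC-NfL 1 lay below vehicle 1, and the difference of the mean log2 ratios, 1.33, had an exact permutation p of 0.0857 (two-sided, also after adjustment over 3 ratios). In batch b1 the means were 5.41 and 8.91 macrophages per 100 microglia, and in b2 they were 3.81 and, from 1 library, 19.9.

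Other immune cells, which the annotation does not divide further, made up 0.310%, 0.426%, 0.246% and 0.330% of cells after vehicle and 0.301%, 1.01% and 1.27% after CC-NfL. CC-NfL 1 lay within the vehicle range and the other 2 libraries above it (log2 odds ratio 1.20, SE 0.51, adjusted p = 0.242). Without CC-NfL replicate 1 this class passed (1.79, adjusted p = 0.0137), and without CC-NfL replicate 3 the estimate was 0.68 (adjusted p = 0.943). Microglia, at 24.2% to 37.5% after vehicle and 29.3% to 36.8% after CC-NfL, had an estimate of 0.02 with a 95% interval of -0.82 to 0.85. The interval leaves room for a fall or a rise of the odds by nearly 1 log2 unit.

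Vascular and stromal classes had estimates below 0 in 4 of 5 cases, with a median of -0.54, and together averaged 4.31% of cells after vehicle and 2.60% after CC-NfL. BMEC, read as the endothelial cells of brain capillaries that form the blood-brain barrier, made up 1.57%, 1.58%, 1.70% and 1.33% after vehicle and 0.509%, 1.23% and 0.672% after CC-NfL. All 3 CC-NfL libraries lay below all vehicle libraries (log2 odds ratio -1.07, SE 0.38, 95% interval -1.95 to -0.20, adjusted p = 0.174). Means were 1.58% and 0.869% in b1 and 1.52% and 0.672% in b2. VECA, which the annotation does not spell out, made up 0.732% ± 0.566 and 0.346% ± 0.180, pericytes, the contractile cells on capillaries, 1.25% ± 0.337 and 0.969% ± 0.516, and VSMC, read as vascular smooth muscle, 0.454% ± 0.333 and 0.220% ± 0.117. VLMC, read as vascular leptomeningeal cells, had the one positive estimate of this group (0.09, SE 1.22). None of these 5 classes passed, and their joint share of 3.65% in CC-NfL 2 lay within the vehicle range of 3.45% to 5.25%.

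Neither glia nor neurons changed as classes. Astrocytes, oligodendrocytes and OPC, the precursors of oligodendrocytes, had estimates of -0.40, -0.28 and -0.10, and neurons, Reelin neurons and NPC, read as neural progenitors, of 0.77, 0.44 and 0.68. Neurons made up 2.09%, 10.6%, 9.59% and 6.42% of cells after vehicle and 8.86%, 7.55% and 12.1% after CC-NfL. Reelin neurons, read as cells that make the secreted guidance protein reelin, reached 0.0114% in vehicle 4 and 0.973% to 1.16% in the other vehicle libraries, and their SE was 1.68. NPC reached 16.8% in vehicle 1 and 20.5% in CC-NfL 1, while the other 5 libraries lay between 1.82% and 5.88%. Ependymal cells, which line the ventricles, made up 0.991% ± 0.414 and 0.481% ± 0.212 (log2 odds ratio -0.89, SE 0.43, adjusted p = 0.289), and choroid plexus cells 8.49% ± 6.26 and 6.90% ± 3.26 (-0.11, SE 0.85).

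**Figure D1:**
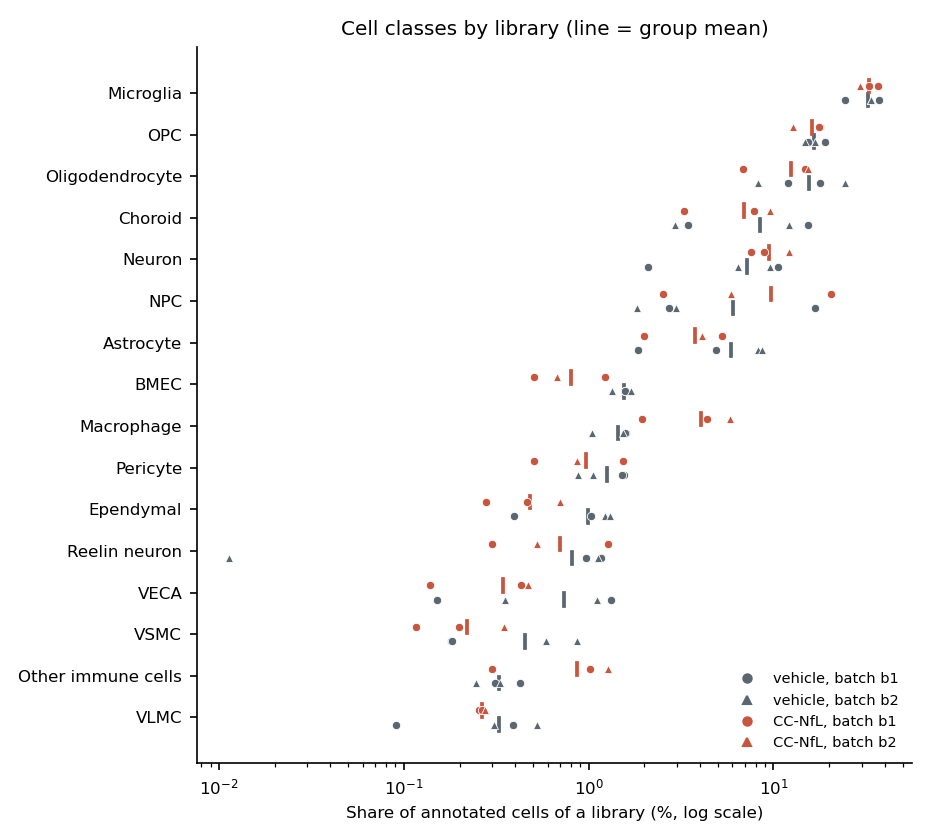
Share of annotated cells (%, log axis) of the 16 cell classes in each library, with vehicle in grey and CC-NfL in red, circles for batch b1 and triangles for b2, and a line at each group mean. Macrophages lie above and BMEC below the vehicle libraries in 3 of 3 CC-NfL libraries, while microglia overlap.

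Within microglia, cells in the activated states took a larger part after CC-NfL and homeostatic cells a smaller part. Of the 5 fine states, 2 passed (40%), 1 in each direction: Activated_2 rose and the homeostatic state fell. Activated_2 made up 4.90%, 11.8%, 12.1% and 13.8% of microglia after vehicle and 22.5%, 31.8% and 22.5% after CC-NfL, 2.41 times the vehicle mean (log2 odds ratio 1.63, SE 0.52, adjusted p = 0.0209). Homeostatic cells made up 86.9%, 68.9%, 72.1% and 68.5% after vehicle and 55.5%, 42.8% and 55.8% after CC-NfL (-1.49, SE 0.53, adjusted p = 0.0240). The groups did not overlap in 3 of 5 states (60%), of which these are 2. Vehicle 1 had the highest homeostatic share of microglia among the vehicle libraries. Without vehicle 1, Activated_2 had an estimate of 1.16 and the homeostatic state of -0.97, and both passed. None of the 5 states passed without CC-NfL replicate 1 (Activated_2 1.73, adjusted p = 0.0534), replicate 2 (1.39, adjusted p = 0.154) or replicate 3 (1.86, adjusted p = 0.0722).

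The annotation names 3 activated states, and together they held 10.4%, 25.9%, 23.4% and 25.5% of microglia after vehicle and 38.8%, 49.2% and 37.0% after CC-NfL. Activated_2 alone made up 49.4% ± 3.93 of these activated cells after vehicle (SD, n = 4) and 61.2% ± 3.31 after CC-NfL (SD, n = 3), a difference for which no test was run. Its share of the pool ran from 45.5% to 53.9% after vehicle and from 58.0% to 64.6% after CC-NfL, without overlap. The number of Activated_2 cells per 100 homeostatic cells was 5.64, 17.1, 16.7 and 20.1 after vehicle and 40.6, 74.3 and 40.3 after CC-NfL, 3.48 times the vehicle mean. The exact permutation p of this ratio was 0.0286 (two-sided), the smallest that 4 and 3 libraries allow, and 0.0429 after adjustment over 3 ratios. Permutation within batches gave 0.0556, the smallest possible there. The ratio is built from the states that passed above, so its p is no separate evidence for them. In b1 the means were 11.3 and 57.5, and in b2 they were 18.4 and 40.3.

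The shares of Activated_1 among microglia were 5.01%, 8.03%, 6.83% and 7.93% for vehicle and 12.0%, 12.7% and 8.10% after CC-NfL. These groups did not overlap, by a margin of 0.0685 percentage points between CC-NfL 3 and vehicle 2, and the estimate did not pass (0.65, SE 0.49, adjusted p = 0.208). Activated_3 made up 0.532%, 6.08%, 4.56% and 3.83% after vehicle and 4.28%, 4.65% and 6.38% after CC-NfL, an overlap of the groups (0.95, SE 0.63, adjusted p = 0.208). Without vehicle replicate 2 it passed (1.58, adjusted p = 0.0228). Proliferating microglia, the dividing cells, made up 2.66%, 5.19%, 4.41% and 5.98% after vehicle and 5.69%, 8.08% and 7.15% after CC-NfL, above the vehicle range in 2 of 3 libraries (0.66, SE 0.51, adjusted p = 0.208).

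The homeostatic state consists of 5 subclusters, all with estimates below 0. When the 9 microglial subclusters were tested, 2 passed (22.2%) and 3 showed groups without overlap (33.3%). Of those that passed, subcluster 7, which is the whole Activated_2 state, rose, and the homeostatic subcluster 1 fell. Subcluster 1 made up 25.1%, 18.1%, 17.6% and 20.3% of microglia after vehicle and 14.4%, 7.13% and 9.93% after CC-NfL. All 3 CC-NfL libraries lay below all vehicle libraries, and the vehicle mean was 1.93 times the CC-NfL mean (log2 odds ratio -1.18, SE 0.34, adjusted p = 0.0202). In b1 the means were 21.6% and 10.8%, and in b2 they were 19.0% and 9.93%. The call ended without CC-NfL replicate 2 (-0.89, adjusted p = 0.0570) and without CC-NfL replicate 3 (-1.23, adjusted p = 0.0937), and that of subcluster 7 without CC-NfL replicate 2 (1.39, adjusted p = 0.0692).

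The other 4 homeostatic subclusters had negative estimates that came closer to 0 in the order of their numbers, and none passed. Subcluster 2 made up 6.12% ± 1.89 of microglia after vehicle and 4.11% ± 1.74 after CC-NfL (-0.76, SE 0.30, adjusted p = 0.0759). Subcluster 3 made up 13.2% ± 2.20 and 8.64% ± 1.63 (-0.57, SE 0.34), and subcluster 4 made up 16.6% ± 1.68 and 12.9% ± 2.37 (-0.47, SE 0.27). Subcluster 5 made up 21.4%, 14.9%, 20.1% and 15.1% after vehicle and 12.1%, 14.1% and 19.4% after CC-NfL (-0.20, SE 0.36, 95% interval -0.99 to 0.58). Within the homeostatic cells alone, subcluster 1 took 27.3% ± 2.43 after vehicle and 20.1% ± 5.06 after CC-NfL, and subcluster 5 took 24.0% ± 2.85 and 29.8% ± 7.05. In CC-NfL 1 these within-state shares, 25.9% for subcluster 1 and 21.8% for subcluster 5, lay inside the vehicle ranges, and the differences between the subclusters were not tested.

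**Figure D2:**
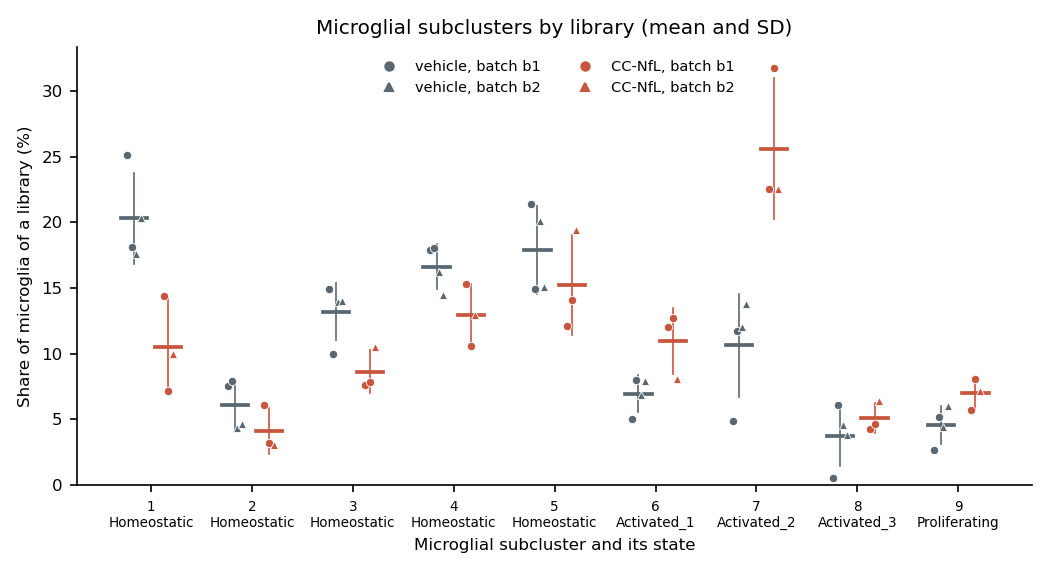
Share of microglia (%) in each of the 9 subclusters per library, with the state of each subcluster below its number, grey for vehicle, red for CC-NfL, circles for batch b1, triangles for b2, and mean and SD as lines. Subcluster 7 reaches 22.5% to 31.8% after CC-NfL against 4.90% to 13.8% after vehicle, and subcluster 1 reaches 7.13% to 14.4% against 17.6% to 25.1%.

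As a share of all annotated cells, homeostatic microglia were again lower and each of the other states higher in the mean. Homeostatic microglia averaged 23.6% of cells after vehicle and 16.8% after CC-NfL, a difference of -6.86 percentage points, and every CC-NfL value lay under the vehicle range. Activated_2 averaged 3.59% and 8.57%, a difference of 4.98 points, and Activated_1, proliferating cells and Activated_3 averaged 1.36, 0.785 and 0.350 points more. With all annotated cells as denominator none of the 5 states passed (0%), neither Activated_2 nor the homeostatic state (adjusted p = 0.0935 for each, log2 odds ratios 1.46 and -0.63). Of the 9 subclusters, subcluster 1 alone passed (11.1%; -1.04, SE 0.27, adjusted p = 0.0392). Of the clusters drawn over all cells, cluster 21 holds 75.0% of Activated_2 and 99.8% of Activated_3 cells, and cluster 30 holds 99.4% of subcluster 1. Cluster 21 averaged 15.2% ± 6.52 of microglia after vehicle and 34.5% ± 5.24 after CC-NfL, and cluster 30 averaged 54.2% ± 8.70 and 36.1% ± 6.56. These clusters divide the same cells, so their values are a second view and no independent evidence, and with 22 clusters tested within their classes both had an adjusted p of 0.0997.

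**Figure D3:**
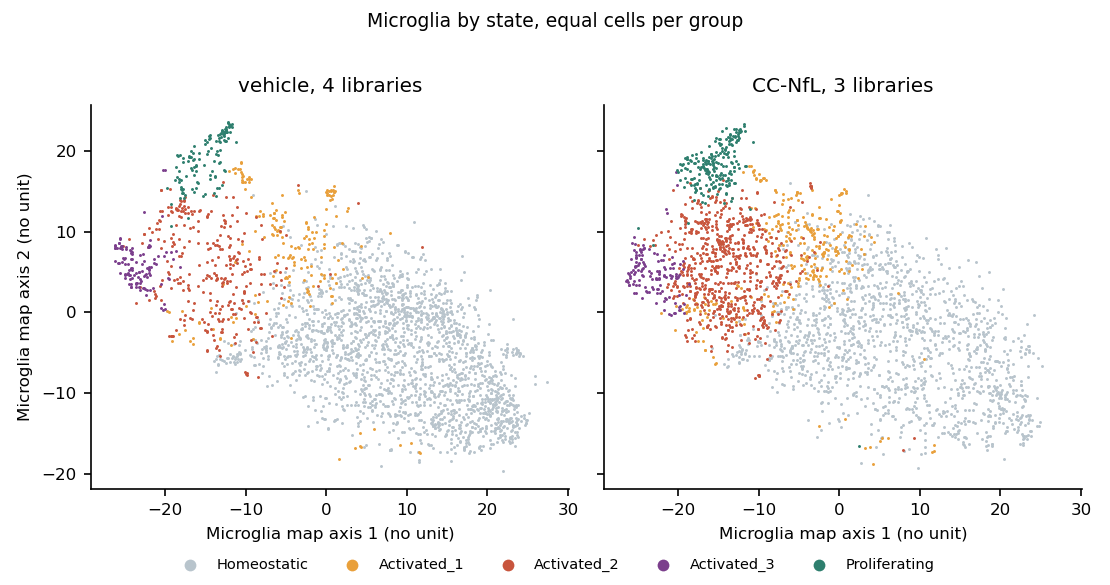
Position of microglia on the authors' t-SNE map of microglia (2 axes without unit), coloured by state, with 704 cells drawn at random from each of 4 vehicle libraries and 939 from each of 3 CC-NfL libraries so that the panels hold like numbers of cells. The area of Activated_2 is more densely filled and the homeostatic area more thinly filled after CC-NfL, as the shares of 22.5% to 31.8% and 42.8% to 55.8% of microglia give in numbers.

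Among macrophages, activated states took a larger part after CC-NfL. Of the 6 fine states with enough cells to test, 5 passed (83.3%): Activated_1, Activated_2 and Activated_3 rose, and MHC2_low and MHC2_high_1 fell. In a fit of the 7 libraries only, without those of FL-NfL, 3 passed, and Activated_1 (adjusted p = 0.0512) and MHC2_high_1 (adjusted p = 0.0600) did not. The groups did not overlap in 4 of the 6 (66.7%). The 3 activated states together held 8.06%, 23.1%, 10.1% and 7.61% of macrophages after vehicle and 52.4%, 47.0% and 80.1% after CC-NfL, 4.90 times the vehicle mean. Every CC-NfL library lay above every vehicle library, with an exact permutation p of 0.0286 (two-sided, the smallest possible) and 0.0429 after adjustment over 3 ratios. Permutation within batches gave 0.0556, the smallest possible there. The sum joins the 3 activated states that passed, so its p is no separate evidence for them. Means were 15.6% and 49.7% in b1 and 8.84% and 80.1% in b2. In a fit of the b1 libraries alone, those of FL-NfL included, none of the 6 states passed, with adjusted p of 0.0990 to 0.335. CC-NfL 3 holds 819 of the 1167 macrophages of the group, so each library was given the same weight whatever its number of cells.

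Activated_3 had the most even values, at 8.06%, 7.69%, 5.37% and 4.35% of macrophages after vehicle and 22.6%, 19.7% and 16.6% after CC-NfL. Its log2 odds ratio was 1.68 (SE 0.33, adjusted p = 0.00266), and it stayed between 1.59 and 1.76 with any 1 library left out. With the centred log ratio, which sets each state against the mean log count of all tested states, the estimate was 0.59 and did not pass (adjusted p = 0.210). Activated_1 made up 0%, 11.5%, 1.34% and 3.26% after vehicle and 11.9%, 16.3% and 36.8% after CC-NfL (3.21, SE 0.95, adjusted p = 0.0136). The gap between vehicle 2 and CC-NfL 1 was 0.366 percentage points, and without CC-NfL replicate 3 the estimate was 2.59 with an adjusted p of 0.0861. Activated_2 made up 0%, 3.85%, 3.36% and 0% after vehicle and 17.9%, 11.0% and 26.7% after CC-NfL (3.75, SE 0.90, adjusted p = 0.00584). A count of 0 allows up to 4.84% among the 62 macrophages of vehicle 1 and up to 3.26% among the 92 of vehicle 4, limits that cover counting error alone, and estimates against counts of 0 depend on the 0.5 added to each count.

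MHC2_low macrophages, named for little MHC class II, made up 38.7%, 50%, 30.9% and 30.4% of macrophages after vehicle and 21.4%, 17.8% and 5.62% after CC-NfL. The groups did not overlap (log2 odds ratio -2.14, SE 0.42, adjusted p = 0.00266). MHC2_high_1 made up 43.5%, 11.5%, 51.0% and 40.2% after vehicle and 16.7%, 10.2% and 3.79% after CC-NfL, where vehicle 2 lay among the CC-NfL libraries (-2.53, SE 0.96, adjusted p = 0.0350). With the replicate number as a block this estimate was -2.30 and did not pass (adjusted p = 0.0858). Only vehicle has a replicate 4, so the block sets vehicle 4 aside and gives the same estimate as leaving it out. The estimate of MHC2_high_1 also did not pass without vehicle replicate 1, 3 or 4, CC-NfL replicate 2 or 3, or FL-NfL replicate 1, at adjusted p of 0.0532 to 0.165. The other MHC2_high state had the opposite sign: MHC2_high_2 made up 1.61%, 7.69%, 6.04% and 4.35% after vehicle and 7.14%, 17.05% and 9.65% after CC-NfL (1.24, SE 0.54, adjusted p = 0.05004, just over the threshold). It passed with the replicate block (1.20, adjusted p = 0.0426), without vehicle replicate 2 (1.63, adjusted p = 0.00804) and without CC-NfL replicate 1 (1.498, adjusted p = 0.0452). The arcsine scale (adjusted p = 0.0480) and a fit without batch term (0.0493) also passed it. It did not pass with the centred log ratio, with 7 libraries only or in b1 alone. With 1 library left out its estimate fell as low as 0.77, and its adjusted p rose as high as 0.184. Granulocytes, which the annotation places among the macrophage states, and proliferating macrophages held a mean of under 10 cells per library and were not tested. Granulocytes made up 0% to 17.4% of macrophages after vehicle and 0.366% to 3.41% after CC-NfL, and proliferating cells 0% to 7.69% and 0% to 4.55%.

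Set against all annotated cells, 4 of the 6 macrophage states passed (66.7%), all of them higher, and those that fell among macrophages did not pass. MHC2_low macrophages made up 0.620%, 0.790%, 0.471% and 0.318% of cells after vehicle and 0.416%, 0.780% and 0.325% after CC-NfL, all within the vehicle range (log2 odds ratio -0.27, SE 0.41, adjusted p = 0.532). MHC2_high_1 averaged 0.520% ± 0.272 and 0.330% ± 0.115 (-0.62, SE 0.70, adjusted p = 0.477). The 3 activated states together made up 0.129%, 0.365%, 0.154% and 0.0795% of cells after vehicle and 1.02%, 2.06% and 4.64% after CC-NfL, 14.1 times the vehicle mean. Macrophages as a class averaged 2.60 percentage points more after CC-NfL, and the activated states averaged 2.39 points more and MHC2_high_2 0.410 points more. On this denominator Activated_1 (4.28, SE 1.01, adjusted p = 0.00433), Activated_2 (4.86, SE 1.03, adjusted p = 0.00323), Activated_3 (2.87, SE 0.56, adjusted p = 0.00323) and MHC2_high_2 (2.53, SE 0.69, adjusted p = 0.00758) rose, each above all vehicle libraries in 3 of 3. In CC-NfL 1, whose macrophage share was nearest to vehicle, the activated states still made up 1.02% of cells, above the highest vehicle value of 0.365%.

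**Figure D4:**
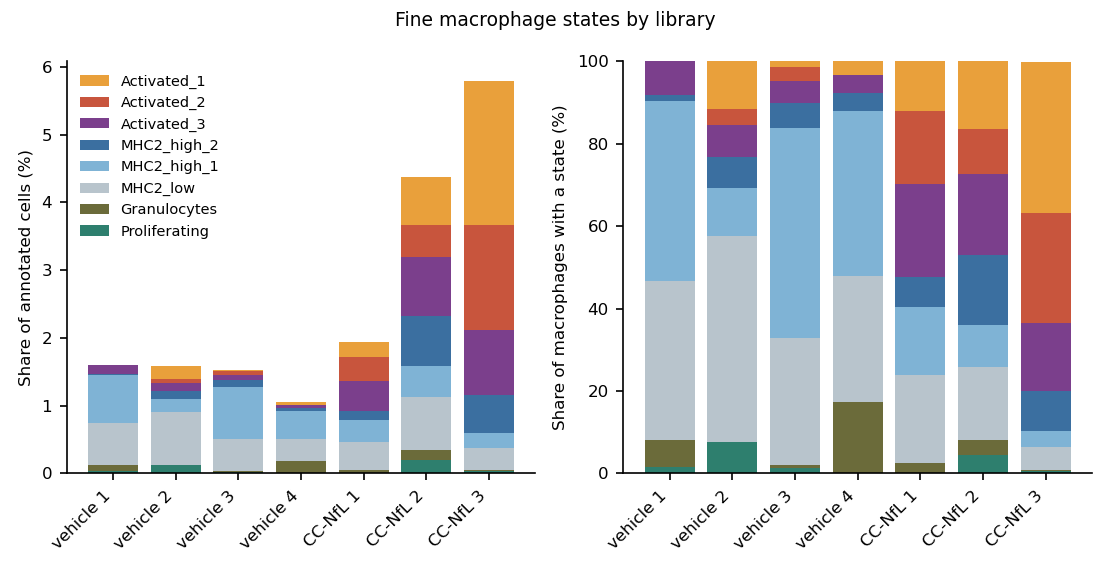
Fine macrophage states in each of the 7 libraries as stacked bars, on the left as a share of annotated cells (%) and on the right as a share of macrophages that carry a state (%). On the left MHC2_low takes 0.318% to 0.790% of cells in vehicle libraries and 0.325% to 0.780% in CC-NfL libraries, with the activated states stacked above it in the CC-NfL libraries, and on the right the activated states reach 47.0% to 80.1% after CC-NfL.

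Clusters were also compared as shares of their class, where values stood apart between the groups in OPC and astrocytes as well as microglia but no change passed. None of 22 clusters tested as a share of their class passed (0%), 8 had an unadjusted p under 0.05 (36.4%), and in 6 the groups did not overlap (27.3%), 3 higher (13.6%) and 3 lower (13.6%). These 6 are clusters 26 and 11 of astrocytes, 15 and 6 of OPC, and 21 and 30 of microglia. Within a class a higher share of 1 cluster lowers that of the others, so they are not 6 independent results. Among OPC, cluster 15 took 15.9%, 22.8%, 19.4% and 16.4% of the class after vehicle and 28.1%, 29.4% and 36.4% after CC-NfL, 1.68 times the vehicle mean. Every CC-NfL library lay above every vehicle library (log2 odds ratio 1.01, SE 0.31, adjusted p = 0.0997). Cluster 6, the main OPC cluster, took 77.5% ± 3.56 and 65.6% ± 3.69, without overlap and largely as the mirror of cluster 15 (-0.86, SE 0.30, adjusted p = 0.0997). Among all cells cluster 15 averaged 1.59 times its vehicle share, while OPC as a class averaged 16.5% ± 1.87 and 16.1% ± 2.95. In b1 cluster 15 averaged 19.4% and 28.7% of OPC, and in b2 it was 17.9% and 36.4%.

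Astrocytes, which support synapses and vessels and respond to injury, consist of clusters 11 and 26. Cluster 26 took 12.6%, 11.5%, 11.3% and 7.89% of astrocytes after vehicle and 29.5%, 20% and 22.0% after CC-NfL, 2.20 times the vehicle mean. The groups did not overlap (log2 odds ratio 1.29, SE 0.48, adjusted p = 0.0997), and cluster 11 carries the mirror value. Means in b1 were 12.1% and 24.8%, and in b2 they were 9.62% and 22.0%. With a quasi-binomial model per cluster, 6 of the 22 clusters passed (27.3%): clusters 26 and 11 (adjusted p = 0.0331 for each), the OPC clusters 15 and 6 (0.0155 for each), and the microglial clusters 30 (0.0155) and 21 (0.0429). The members of each pair are shares of the same class, so these calls are not independent.

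Among oligodendrocytes, which make myelin, cluster 16 took 1.08%, 6.61%, 18.3% and 3.23% of the class after vehicle and 10.1%, 17.5% and 23.2% after CC-NfL. CC-NfL 1 and CC-NfL 2 lay below vehicle 3 and above the other vehicle libraries (2.08, SE 0.88, adjusted p = 0.122). Among neurons, cluster 17 took 77.8%, 70.0%, 77.4% and 52.2% after vehicle and 49.6%, 38.9% and 59.3% after CC-NfL (-1.29, SE 0.51, adjusted p = 0.112), where CC-NfL 3 lay above vehicle 4. The choroid cluster 12 took 0.677% to 2.63% of choroid cells after vehicle and 26.8%, 5.32% and 1.40% after CC-NfL (1.69, SE 0.98, adjusted p = 0.267), with CC-NfL 1 far above the other 6 libraries. The NPC cluster 14 took 4.73% to 55.3% of NPC after CC-NfL and 7.86% to 70.8% after vehicle (-1.28, SE 1.56).

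**Figure D5:**
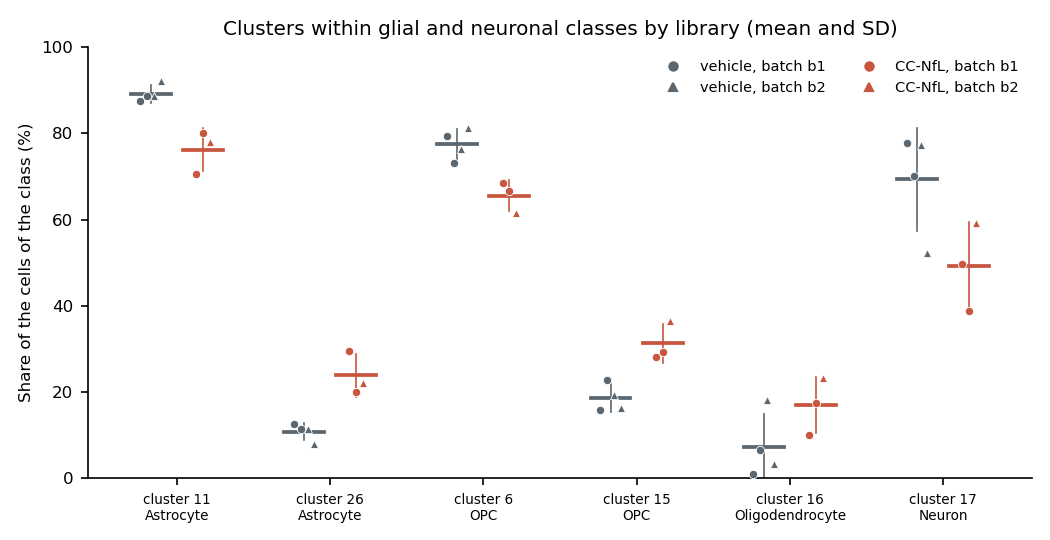
Share (%) of the cells of a class in clusters 11 and 26 of astrocytes, 6 and 15 of OPC, 16 of oligodendrocytes and 17 of neurons, per library, with vehicle in grey, CC-NfL in red, circles for batch b1, triangles for b2, and mean and SD as lines. For clusters 26 and 15 all CC-NfL points lie above the vehicle points, for clusters 11 and 6 all lie below them, and the groups overlap in clusters 16 and 17.

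As shares of all annotated cells, none of 31 clusters passed (0%), 3 had an unadjusted p under 0.05 (9.68%), and 5 showed groups without overlap (16.1%), 3 higher (9.68%) and 2 lower (6.45%). With a quasi-binomial model none passed either, and 10 had an unadjusted p under 0.05. Clusters 32, 29 and 8 are the whole macrophage, other immune and BMEC classes and carry their values. Beside these, cluster 16 had the largest positive estimate (1.70, SE 0.78), followed by the choroid cluster 12 (1.47, SE 0.74), and the choroid cluster 18 (-0.96, SE 1.06) and the ependymal cluster 4 (-0.89, SE 0.44) were among the lowest. Cluster 24, the smallest OPC cluster, was below the minimum for a test. It held 0.0231%, 0% and 0.0283% of cells after CC-NfL and 0.0568% to 0.256% after vehicle, and 0 of 6025 cells in CC-NfL 2 allows a share of up to 0.0498%.

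Between CC-NfL and FL-NfL, none of the 16 classes, 5 microglial states or 6 macrophage states passed in the same model (0% in each), and an unadjusted p under 0.05 was reached by BMEC alone (6.25% of classes). BMEC made up 1.60% ± 0.378 of cells after FL-NfL (SD, n = 3) and 0.803% ± 0.377 after CC-NfL (log2 odds ratio of CC-NfL over FL-NfL -1.08, SE 0.40, 95% interval -2.002 to -0.15, adjusted p = 0.378). The 95% interval of this difference was -0.68 to 1.57 for microglial Activated_2, and among macrophages -2.01 to 2.59 for Activated_1, -1.91 to 2.46 for Activated_2 and -1.18 to 0.43 for Activated_3. These intervals do not show that the proteins act alike. OPC cluster 15 differed by 0.08 (95% interval -0.67 to 0.82) and astrocyte cluster 26 by 0.64 (-0.53 to 1.81) as shares of their class.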

How the data were processed

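The submitters' processing notes name Cell Ranger 6.0.1 and the mouse build GRCm38. How the authors filtered, clustered, named and mapped the cells, and how they treated doublets, is not stated in these sources, and no doublets were removed here. The authors deposited, per barcode, names of class, cluster and state, and t-SNE positions, which are scores without a unit. Of 108266 barcodes, 68914 carried a class, all with the condition and batch of the labels. A misspelling of the class name Pericyte was corrected.

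For each library, log2((cells + 0.5) / (other cells + 0.5)) was fitted in limma 3.58.1 (R 4.3.3) over all 10 libraries with group and batch as terms. Items averaging fewer than 10 cells per library were not tested. Tests were adjusted by Benjamini-Hochberg within each family: classes, clusters, clusters within their class, microglial states, microglial subclusters and macrophage states. The spread is pooled over the few items of a family, and states of 1 class are not independent, so their p-values may be too small. A set of 3 ratios (the per-100 ratios as log2) was compared by exact permutation of 35 splits. The same permutation on the percentages of each tested item gave adjusted p = 0.0476 for microglial Activated_1, Activated_2 and the homeostatic state. It gave 0.0857 for subclusters 1, 6 and 7, and 0.0429 for the 3 activated macrophage states and MHC2_low. MHC2_high_1 and MHC2_high_2 gave 0.0857, and no class, cluster or cluster within its class passed. The limma step was tested on simulated data with many independent items, which does not cover families of few and dependent items. Limits for a count of 0 (3 cells) cover counting error alone. The design text counts as many mice as there are libraries in each group, so a library was taken as 1 mouse.

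The libraries, groups of classes and items were chosen with earlier results of these data known. Named with values were all classes and states, clusters with an unadjusted p under 0.05, and the 3 clusters with the highest and the 3 with the lowest estimates. The replicate numbers are taken to pair the samples: over 31 clusters, deviations from the group mean correlated at r = 0.39, 0.42 and 0.24 between vehicle and CC-NfL libraries with the same number, though vehicle 3 with CC-NfL 2 (0.40) and vehicle 4 with CC-NfL 3 (0.21), of unlike numbers, reached like values and the labels do not say what the number stands for. Libraries with the same number also share a batch, which was not removed from the deviations, so these values do not establish a pairing. The main fits and the permutation tests did not use this pairing, which enters only through the replicate block. Alternatives covered the added count, the scale, the model, the libraries in the fit, the batch term, the minimum of cells, the denominator and each library left out. Leaving out the 3 libraries numbered 1 together was chosen after seeing the data.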

Additional observations from a re-analysis of the deposited data

Results flagged for a closer look

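In 3 classes 1 vehicle library stood apart from the other 3 by a gap above the 95% limit that Dixon gives for 4 values (gap over range 0.836 to 0.923). About 1 in 20 groups passes this limit by chance, and 43 items were checked. NPC made up 16.8% of cells in vehicle 1 and 1.82% to 2.98% in the other vehicle libraries. Reelin neurons made up 0.0114% in vehicle 4 and 0.973% to 1.16% in the others. Macrophages made up 1.05% in vehicle 4 and 1.54% to 1.60% in the others.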

How the results depend on the processing

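Over 1239 combinations of an item and an alternative (53 items), 1136 kept the direction and the side of the threshold, 41 lost the call, 27 gained one and 35 changed sign, and the causes of these changes were not tested. Only items called in the main fit could lose a call: 2 microglial states, 2 subclusters and 5 macrophage states. Most of the 1136 are uncalled items that stayed uncalled, so this count does not measure how firm the calls are. Without the 3 libraries numbered 1, chosen after seeing the data, 2 classes passed (macrophages 1.95 and other immune cells 1.77) and 2 of 6 macrophage states. With 1 library left out the number of calls ran from 0 to 2 for classes, 0 to 2 for clusters, 0 to 0 for clusters within their class, 0 to 3 for microglial states, 0 to 3 for subclusters and 3 to 6 for macrophage states. Clusters within their class gave 6 calls with the quasi-binomial model and 3 without moderation of the variances, where the microglial states and subclusters gave 0. Microglial states gave 1 call with the centred log ratio and 0 as a share of all annotated cells, and subclusters gave 1 in b1 alone and 1 as a share of all annotated cells. Macrophage states gave 3 calls with 7 libraries only, 0 in b1 alone and 3 of 3 tested at a mean of at least 50 cells. The replicate block ended the call of MHC2_high_1 (-2.30), added MHC2_high_2 (1.20) and changed no other call.

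Permutation within batches gave exact p = 0.0556, the smallest possible, for Activated_2 per 100 homeostatic cells and for activated macrophages. In b1 alone their differences were 2.49 (log2) and 34.1 points. With 1 library left out the differences ran from 1.47 to 2.08 and from 37.5 to 54.0 points, and for macrophages per 100 microglia from 0.92 to 1.79, where no exact permutation p can pass.

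Signs changed for items that did not pass in the main fit. Reelin neurons gave -0.00436 on the arcsine scale, -0.23 with the quasi-binomial model, -0.88 with the replicate block and -0.77 in b1, and VLMC -0.00112, -0.41 and -0.048 under the first 3 of these and -0.085 without the batch term. Microglia gave -0.11 with the quasi-binomial model, and in b1 astrocytes gave 0.10 and OPC 0.064. Without the libraries numbered 1, choroid gave 0.82, microglia -0.22, oligodendrocytes 0.0054, VECA 0.28, cluster 18 0.42 and subcluster 5 0.088. Microglial Activated_1 gave -0.010 with the centred log ratio. With 1 library left out, estimates ran from -0.67 to 0.47 for choroid, -0.28 to 0.12 for microglia, -1.31 to 0.027 for VECA, -0.68 to 0.059 for oligodendrocytes, -0.32 to 0.63 for VLMC, -0.88 to 1.14 for Reelin neurons, -0.072 to 1.59 for NPC, -0.21 to 0.060 for OPC and -0.38 to 0.064 for subcluster 5. Depth limits the macrophage states, with 52 to 149 macrophages in each vehicle library, and rare classes such as Reelin neurons, with 1 cell in vehicle 4.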
